A study of Mus musculus with 2 samples.

Results

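The genes described here are 42 DNA replication genes, taken by name and not by their values from the 11691 genes of a single-cell RNA sequencing table, in which all 42 were present. They are read in explant cultures of C57/BL6 mouse tissues of Theiler stage 12 (E8.5, 5 to 7 somite pairs), in which the embryo proper (Em-Ex) and the yolk sac (YS-Ex) were cultured apart for 10 days at the air-liquid interface with SCF, IL-3 and FLT3 ligand, each at 100 ng/ml. The same pool of concepti gave both kinds of explant, and a sorted fraction (CD31+CD45+c-Kit+CD41-) was captured as 1 droplet library per condition, so no value here has a replicate library and no test was run. Intervals are 95% intervals that cover counting error only, and they do not include the spread between cultures.

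Before a cell divides it copies its genome once. In G1 the MCM ring is loaded onto origins with the help of *Cdc6*, at the start of S phase *Cdc45* and the GINS complex turn it into the moving helicase, and DNA polymerases, their primase and the sliding clamp *Pcna* follow it, fed by enzymes that make deoxynucleotides. Much of this machinery is transcribed in one wave at the G1/S boundary under the E2F factors and then switched off, so these messages are high in S phase cells and low in resting ones. Sister chromatid cohesion, fork protection, repair and the supply of histones belong to the same wave, and mast cells and other maturing blood cells leave the cycle as they differentiate.

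Because members that share a wave can share letters in their promoters, RefSeq promoter windows of GRCm38.p6 (250 bases before to 50 bases after the annotated start) were searched on both strands. The E2F letters searched were TTTCCCGC, TTTCGCGC, TTTGCCGC and TTTGGCGC. A gene was counted where any of its windows held a match. They were present in 13 of the 32 members with a window (40.6%), in 16 of 49 other replication genes with a window (32.7%) and in 1 of 17 mitosis genes (5.88%). Of all 27025 genes with a window 2.6% held them, and of all 32851 windows 2.26%. The CHR letters TTTGAA or TTCGAA, known from genes of the later G2/M wave, were in 25% of these members, 76.5% of the mitosis genes and 21.7% of all genes with a window. CCAAT was in 71.9%, 88.2% and 41.1% of the same genes. No E2F word contains a CHR word or CCAAT, and in the windows of *Mcm5* and *Mcm6* a pair of E2F matches overlapped on opposite strands. A match is a description of letters and not a shown binding site. The following 30-base stretches are given 5′ to 3′ on the strand of the gene, for members that the results below turn on. In each, 1 match to the E2F letters or their reverse complement is in capitals. The match that overlaps it in *Mcm5* is not marked.
*Mcm5* (chr8:75109345-75109374, + strand, match 153 bases before the start): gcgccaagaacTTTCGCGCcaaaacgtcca
*Mcm6* (chr1:128359734-128359763, - strand, 47 bases before): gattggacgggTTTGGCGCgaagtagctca
*Cdc6* (chr11:98908002-98908031, + strand, 138 bases before): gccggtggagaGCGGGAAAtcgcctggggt
*Cdca7* (chr2:72476137-72476166, + strand, 71 bases before): tgcgtcccggcGCGGGAAAgccggtggccc
*Uhrf1* (chr17:56304117-56304146, + strand, 185 bases before): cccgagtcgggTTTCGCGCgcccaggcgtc
*Hells* (chr19:38930917-38930946, + strand, 62 bases before): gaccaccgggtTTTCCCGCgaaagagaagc
*Pola1* (chrX:93632275-93632304, - strand, 138 bases before): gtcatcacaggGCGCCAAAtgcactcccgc

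The 2 libraries held 3071 Em-Ex cells with 42752370 UMIs and 2087 YS-Ex cells with 27031627 UMIs after the authors' stated limits on genes and mitochondrial reads were applied, fewer than the study analysed, with medians of 12341 and 11729 UMIs per cell. A UMI stands for 1 captured transcript, and CPM is UMIs per 1000000 UMIs of the pooled cells. The libraries shared 35 barcodes. Cells with at least 40 UMIs of *Cpa3* per 10000 are called Cpa3-high and the others Cpa3-low; *Cpa3* encodes carboxypeptidase A3, a mast cell protease. By this limit 2200 Em-Ex and 1946 YS-Ex cells were Cpa3-high, and 871 Em-Ex and 141 YS-Ex cells were Cpa3-low. Genes of the sort were present in every group, with *Pecam1* (CD31) at 34.3 to 55.4 CPM, *Ptprc* (CD45) at 44.6 to 119.2 CPM and *Itga2b* (CD41) at 2.8 to 22.9 CPM. *Kit* stood at 339.7 CPM in Cpa3-high and 123.5 CPM in Cpa3-low Em-Ex cells, and at 992.9 and 548.2 CPM in the YS-Ex groups.

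Together the 42 genes made up 1997 CPM (1984–2011) of Em-Ex and 1449 CPM (1434–1463) of YS-Ex, giving a ratio of 1.38 (1.362–1.395). The gap in pooled level was smaller within each class of cells. Cpa3-high cells of Em-Ex held 1612 CPM (1597–1627) and those of YS-Ex 1371 CPM (1357–1386), which is 1.18-fold (1.16–1.19) apart. Cpa3-low cells held 2683 CPM (2657–2709) and 2539 CPM (2466–2614), 1.06-fold (1.02–1.09) apart. Weighting each cell equally set the Cpa3-low groups further apart, with means of 24.1 (Em-Ex) and 19.1 (YS-Ex) and medians of 20.8 and 9.22 module UMIs per 10000. The larger gap over all cells goes with the larger number of Cpa3-low cells in Em-Ex. In both libraries the level was lower in Cpa3-high than in Cpa3-low cells, by 1.66-fold (1.64–1.69) in Em-Ex and 1.85-fold (1.79–1.91) in YS-Ex.

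Single cells did not spread evenly around these averages. Most Cpa3-high cells lay in a low mode, with medians of 7.70 module UMIs per 10000 in Em-Ex and 6.89 in YS-Ex, and a minority formed a long upper shoulder. At a cut of 20 per 10000, set after the distribution was seen, 19.9% of Em-Ex Cpa3-high cells (18.2–21.6, exact binomial) and 12.7% of YS-Ex Cpa3-high cells (11.3–14.3) were above it. Among Cpa3-low cells 51.7% (48.3–55.0) were above it in Em-Ex and 34.8% (26.9–43.2) in YS-Ex. After thinning of each cell to 3000 UMIs these shares were 23.5%, 14.95%, 54.7% and 36.9%, in the same order of groups. The cut divides a range and not a type, since 247 Em-Ex and 113 YS-Ex Cpa3-high cells and 172 and 20 Cpa3-low cells lay between 15 and 25 per 10000. The part of free RNA in these levels per cell was not tested.

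**Figure D1:**
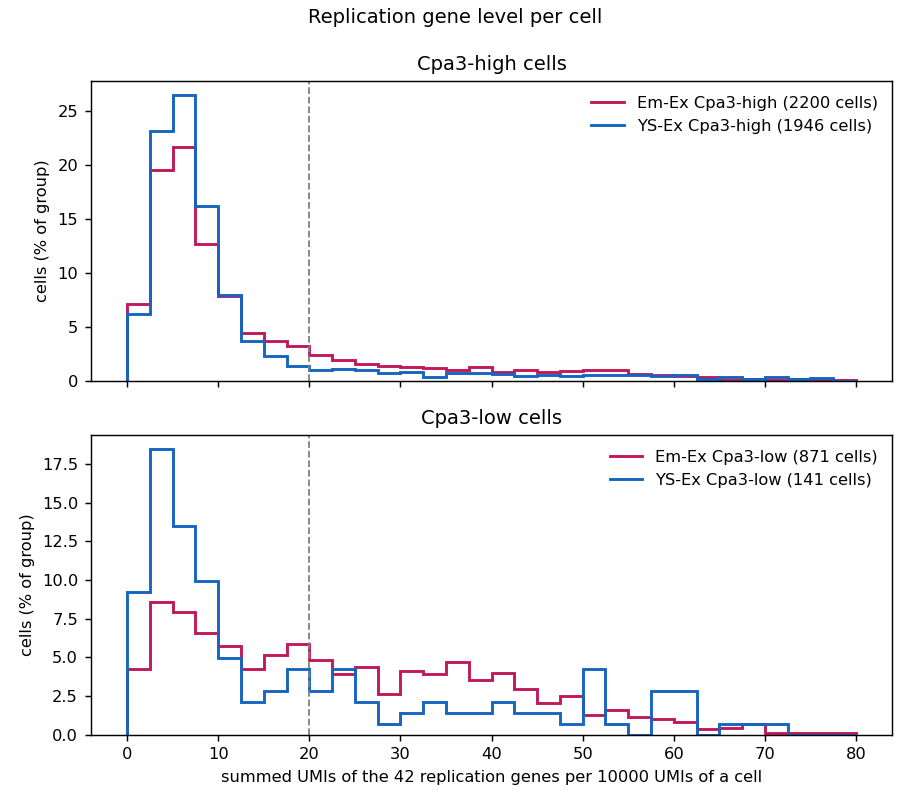
Share of cells (%, vertical) by the summed UMIs of the 42 replication genes per 10000 UMIs of a cell (horizontal, bins of 2.5), for Cpa3-high cells (top) and Cpa3-low cells (bottom) of Em-Ex (red) and YS-Ex (blue), with the few cells over 80 not drawn. The dashed line is the cut of 20, and 51.7% of Em-Ex Cpa3-low cells lie at or above it against 19.9% of Em-Ex Cpa3-high cells.

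Above the cut the levels were 3808 CPM in Cpa3-high and 3742 CPM in Cpa3-low Em-Ex cells, and 4226 and 4329 CPM in the YS-Ex groups. Below the cut the levels were 799 and 1109 CPM in Em-Ex and 719 and 785 CPM in YS-Ex. The cut is made on the same sum, which bounds the levels on either side of it. Cells above the cut held 63.8% of all module UMIs of Em-Ex Cpa3-high cells and 57.3% of those of YS-Ex Cpa3-high cells, and 83.4% and 84.4% in the Cpa3-low groups. Cells above the cut also held more RNA molecules in all, with medians of 16880 against 10376 UMIs in Em-Ex Cpa3-high cells and 19289 against 11135 UMIs in YS-Ex Cpa3-high cells. The shares thinned to 3000 UMIs, given above, keep the order of the groups at equal depth.

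The level was lower in steps along the amount of *Cpa3* and not only at the limit of 40. In Em-Ex it was 3013 CPM in 538 cells with under 5 UMIs of *Cpa3* per 10000, 1940 CPM from 5 to 40, 1951 CPM from 40 to 80, 1632 CPM from 80 to 160 and 1170 CPM at 160 or more. The bands just outside and just inside the limit therefore held nearly the same level in Em-Ex. In YS-Ex the bands from 5 to 40 upward held 2122, 1870, 1578 and 1088 CPM, and the band under 5 had only 40 cells. The share of cells above the cut went the same way, from 64.3% (60.1–68.4) under 5 to 10.7% (8.45–13.3) at 160 or more in Em-Ex, and it was 7.996% (6.38–9.87) at 160 or more in YS-Ex.

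The Cpa3-low cells are not of one kind, and markers of several blood cells were higher in them. The 10 mast cell markers, all measured, summed to 46356 CPM in Cpa3-high and 6617 CPM in Cpa3-low Em-Ex cells, and to 49479 and 13625 CPM in YS-Ex. These sums include *Cpa3* itself, which sets the groups, at 13007 and 907 CPM in Em-Ex and at 17404 and 1732 CPM in YS-Ex. The 4 measured neutrophil granule genes (*Mpo*, *Prtn3*, *Elane* and *Ctsg*, of 5 listed) summed to 13.2 and 937 CPM in Em-Ex and to 2.85 and 487 CPM in YS-Ex, where *Elane* and *Ctsg* were listed at 0. The 8 macrophage markers summed to 201 and 675 CPM in Em-Ex and to 63.0 and 1570 CPM in YS-Ex. Of the erythroid markers, the globin gene *Hba-a1* stood at 26.7 and 266 CPM in Em-Ex and at 56.9 and 594 CPM in YS-Ex, and *Alas2*, of heme synthesis, at 1.53 and 2.93 CPM in Em-Ex and at 0 in YS-Ex. Of the endothelial list only *Egfl7* was in the table, at 16.2 and 201 CPM in Em-Ex and 17.4 and 37.5 CPM in YS-Ex, and the 3 measured stromal genes summed to 1.83 and 32.9 CPM in Em-Ex and were at 0 in YS-Ex. The part of these cells in the difference of the module was not tested, except that the module level was 3169 CPM (3119–3220) in the 207 Em-Ex cells under 5 of *Cpa3* with at least 5 granule gene UMIs per 10000, and 2886 CPM (2842–2929) in the 331 such cells with fewer. At a gate of 40 UMIs per 10000, the 41 Em-Ex Cpa3-low cells with granule genes held 3367 CPM (3259–3478) and the 35 with macrophage genes 1028 CPM (941–1122), the latter below Cpa3-high cells. In YS-Ex the 11 Cpa3-low cells with macrophage genes held 1687 CPM (1492–1900), above Cpa3-high cells, but 3 of the 11 gave 86.8% of their module UMIs and the other 8 stood at 368 CPM. The 795 Em-Ex and 125 YS-Ex Cpa3-low cells that reached neither gate held 2688 CPM (2661–2715) and 2589 CPM (2509–2671). They made up most of the 871 and 141 Cpa3-low cells, so a level near that of all Cpa3-low cells follows from their number.

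Per member, 0 of the 42 genes were higher by 1.5-fold in Cpa3-high than in Cpa3-low cells in either library, where 14.4% (Em-Ex) and 7.32% (YS-Ex) of all genes tested were. Lower by 1.5-fold were 32 members in Em-Ex and 36 members in YS-Ex. Restricted to genes that reach 10 CPM in 1 of the groups, this was 31 of 40 members and 35 of 41 members, while 29.4% of all 7246 genes tested (Em-Ex) and 17.7% of all 7536 (YS-Ex) were lower by as much. The members' median log2 ratio was -0.90 in Em-Ex and -1.17 in YS-Ex, against -0.24 and -0.12 over all genes tested. Between the libraries, within Cpa3-high cells, 13 of the 42 members were higher and 6 lower in Em-Ex by 1.5-fold. Of the 37 members that reach 10 CPM, 11 were higher and 5 lower, against 8.53% higher and 24.2% lower of all 6998 genes tested. Over all cells 19 of the 42 were higher and 5 lower, with 16.5% and 22.3% of all genes tested, and in Cpa3-low cells 10 were higher and 9 lower, with 19.7% and 27.6% of all genes tested. The members' share of higher genes was thus above that of all genes in Cpa3-high cells and over all cells, and close to it in Cpa3-low cells.

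**Figure D2:**
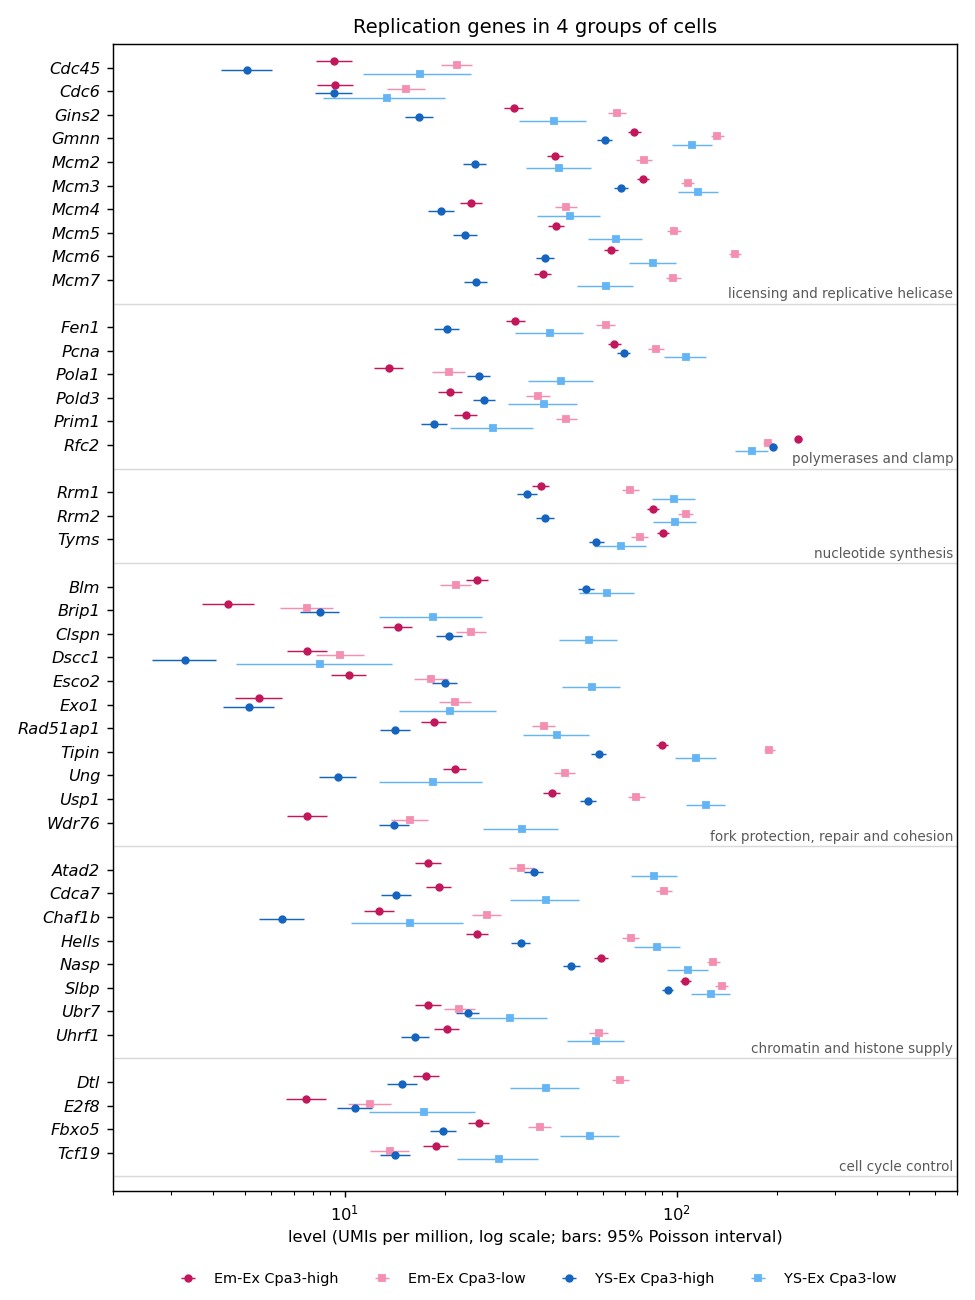
Level of each of the 42 genes (CPM on a log axis) in Cpa3-high (circles) and Cpa3-low cells (squares) of Em-Ex (red) and YS-Ex (blue), grouped by role, with 95% Poisson intervals. For most genes the squares lie to the right of the circles, while Rfc2, at 232 and 188 CPM in Em-Ex, lies the other way.

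The licensing and helicase genes were mostly lower in Cpa3-high cells. *Mcm2* to *Mcm7* encode the subunits of the MCM ring, *Gins2* and *Cdc45* join it in the active helicase, *Cdc6* loads it and *Gmnn* (geminin) blocks a second loading in the same cycle. Of these 10 genes, 9 were lower by 1.5-fold in Cpa3-high cells in Em-Ex and 9 in YS-Ex, beside 29.4% and 17.7% of all genes tested. *Mcm7* stood at 39.4 CPM (37.1–41.8) in Cpa3-high and 97.5 CPM (92.6–103) in Cpa3-low Em-Ex cells, and at 24.8 CPM (22.9–26.8) and 60.98 CPM (50.1–73.6) in YS-Ex. Its levels were thus lower in Cpa3-high cells by 2.48-fold (Em-Ex) and 2.46-fold (YS-Ex), and the intervals of the groups did not overlap. *Mcm5* stood at 43.2 and 98.0 CPM in Em-Ex and at 23.0 and 65.5 CPM in YS-Ex. *Mcm6* stood at 63.2 and 150 CPM in Em-Ex and at 40.2 and 84.5 CPM in YS-Ex. *Cdc45*, which is scarce, stood at 9.28 CPM (8.17–10.5) and 21.7 CPM (19.5–24.2) in Em-Ex and at 5.07 CPM (4.23–6.03) and 16.8 CPM (11.3–24.0) in YS-Ex. Geminin stood at 74.4 and 132 CPM in Em-Ex and at 60.6 and 111 CPM in YS-Ex. In each of these genes both Cpa3-high groups lay below both Cpa3-low groups. *Mcm3* moved least of the ring's 6 subunits, from 79.1 to 108 CPM in Em-Ex, a 1.36-fold difference (Cpa3-low over Cpa3-high).

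Between the libraries the same group leaned to Em-Ex. Within Cpa3-high cells 6 of the 10 were higher in Em-Ex by 1.5-fold and 0 lower, beside 8.53% and 24.2% of all genes tested, with *Gins2* at 32.3 against 16.8 CPM (1.92-fold, 1.71–2.17), *Mcm5* 1.88-fold (1.70–2.08), *Cdc45* 1.83-fold (1.47–2.28), *Mcm2* 1.74-fold, *Mcm7* 1.59-fold and *Mcm6* 1.57-fold. *Cdc6* was the one without a lean, at 9.35 CPM (8.24–10.6) for Em-Ex against 9.27 CPM (8.12–10.5) for YS-Ex, and the intervals overlap almost fully. *Mcm3*, *Mcm4* and *Gmnn* were 1.17- to 1.23-fold higher in Em-Ex. The subunits of the hexameric ring therefore differed among themselves, from 1.17-fold for *Mcm3* to 1.88-fold for *Mcm5*, beyond their counting intervals (1.09–1.24 and 1.70–2.08). The lean was smaller among Cpa3-high cells above the cut of 20, chosen for each gene by the other 41. There the 6 genes stood at ratios of 1.05 (*Mcm7*) to 1.38 (*Mcm2*), and *Mcm4*, *Cdc6*, *Mcm3* and *Gmnn* at 0.85 to 0.89.

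Polymerase and clamp genes were mixed. *Prim1* (primase) stood at 23.1 and 46.4 CPM in Cpa3-high and Cpa3-low Em-Ex cells and at 18.5 and 28.0 CPM in YS-Ex. *Fen1*, the nuclease that trims Okazaki fragments, stood at 32.6 and 61.1 CPM in Em-Ex and at 20.2 and 41.4 CPM in YS-Ex, and it was 1.61-fold (1.44–1.80) higher in Em-Ex within Cpa3-high cells. *Pola1*, the catalytic subunit of the polymerase that makes the primers, leaned the other way, at 13.6 CPM (12.21–15.002) in the Cpa3-high cells of Em-Ex and 25.3 CPM (23.4–27.3) in those of YS-Ex, 1.87-fold lower in Em-Ex. *Pcna*, the sliding clamp, was close to even at 64.8 and 69.1 CPM, with a ratio of 0.938 (0.877–1.003). *Pold3*, an accessory subunit of the polymerase of the lagging strand, was 1.27-fold lower in Em-Ex.

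Of the nucleotide enzymes, the subunits of ribonucleotide reductase, *Rrm1* and *Rrm2*, parted. *Rrm2*, the small subunit that limits the enzyme to S phase, stood at 84.8 CPM (81.4–88.3) and 106 CPM (101–111) in Cpa3-high and Cpa3-low Em-Ex cells, and at 40.01 CPM (37.6–42.6) and 98.5 CPM (84.4–114) in YS-Ex. The YS-Ex Cpa3-high cells stand out as low, and *Rrm2* was 2.12-fold (1.97–2.28) higher in Em-Ex there but 1.08-fold in Cpa3-low cells. *Rrm1* stood at 38.8 and 72.4 CPM in Em-Ex and at 35.4 and 97.9 CPM in YS-Ex, so its libraries differed by 1.10-fold in Cpa3-high cells. *Tyms* (thymidylate synthase) stood at 90.7 and 77.2 CPM in Em-Ex and at 57.2 and 67.7 CPM in YS-Ex.

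The fork, repair and cohesion genes held members on both sides between the libraries. Within Cpa3-high cells 3 of the 11 were higher in Em-Ex by 1.5-fold and 4 lower, beside 8.53% and 24.2% of all genes tested. The 3 higher genes were *Ung* (uracil removal, 21.4 against 9.55 CPM, 2.24-fold, 1.93–2.62), *Dscc1* (part of a clamp loader for cohesion, 7.71 against 3.29 CPM, 2.34-fold, 1.81–3.06) and *Tipin* (fork protection, 90.1 against 58.2 CPM, 1.55-fold, 1.45–1.65). The 4 lower genes were *Blm* (a RecQ helicase, 25.02 against 53.2 CPM, 2.12-fold lower), *Esco2* (the cohesin acetyltransferase, 10.3 against 20.0 CPM, 1.95-fold lower), *Brip1* (a helicase partner of BRCA1, 4.46 against 8.40 CPM, 1.88-fold lower) and *Wdr76* (7.71 against 14.1 CPM, 1.83-fold lower). In Cpa3-low cells the same 4 were also lower in Em-Ex, at 0.33 to 0.46 of their YS-Ex level. Against *Cpa3*, 9 of the 11 were lower by 1.5-fold in Cpa3-high cells in Em-Ex and 10 in YS-Ex, beside 29.4% and 17.7% of all genes tested. *Exo1*, an exonuclease of mismatch repair, had one of the widest gaps, at 5.52 and 21.5 CPM in Em-Ex and 5.15 and 20.7 CPM in YS-Ex. *Clspn* (claspin, which relays the checkpoint signal from stalled forks) stood at 14.4 and 24.00 CPM in Em-Ex and at 20.6 and 54.3 CPM in YS-Ex. *Usp1*, a deubiquitinase that acts on *Pcna*, stood at 42.0027 and 75.5 CPM in Em-Ex and at 54.0 and 123 CPM in YS-Ex. *Rad51ap1*, which acts in homologous recombination, stood at 18.5 and 39.7 CPM in Em-Ex and at 14.2 and 43.6 CPM in YS-Ex. For these genes the Cpa3-high levels of the libraries lay within 1.43-fold of each other.

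Chromatin and histone genes included the member with the widest gap by *Cpa3* in Em-Ex. *Cdca7*, a partner of the chromatin remodeller *Hells*, stood at 19.2 CPM (17.6–20.9) and 91.5 CPM (86.7–96.4) in Cpa3-high and Cpa3-low Em-Ex cells, 4.77-fold lower, and at 14.3 and 40.3 CPM in YS-Ex, 2.82-fold lower. *Uhrf1*, which brings the maintenance DNA methyltransferase to new DNA, was 2.87- and 3.51-fold lower in Cpa3-high cells, and *Hells* 2.91- and 2.58-fold. The histone genes' own helpers differed. *Slbp*, which binds the stem-loop of histone mRNAs, moved less and was 1.29-fold (Em-Ex) and 1.35-fold (YS-Ex) lower. *Nasp*, a histone chaperone, was 2.18- and 2.24-fold lower. *Ubr7*, of the UBR family of ubiquitin ligases, stood at 17.8 and 22.1 CPM in Em-Ex and at 23.5 and 31.3 CPM in YS-Ex, short of 1.5-fold in both. *Chaf1b*, of the assembly factor CAF-1, was 1.96-fold (1.62–2.38) higher in Em-Ex Cpa3-high cells, and *Atad2*, a bromodomain ATPase, 2.08-fold lower, at 17.8 against 37.04 CPM.

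The control genes differed in their gate pattern. *Dtl*, which marks licensing factors for destruction in S phase, was 3.86-fold lower in Cpa3-high cells in Em-Ex (17.5 and 67.6 CPM) and 2.70-fold lower in YS-Ex (14.9 and 40.3 CPM). *Fbxo5* (Emi1, an inhibitor of the anaphase-promoting complex) stood at 25.3 and 38.6 CPM in Em-Ex and at 19.8 and 54.8 CPM in YS-Ex. *E2f8*, a repressor of the E2F wave, was 1.56- and 1.62-fold lower in Cpa3-high cells. *Tcf19* stood at 18.8 CPM (17.2–20.5) and 13.7 CPM (11.9–15.6) in Em-Ex, and at 14.2 CPM (12.8–15.7) and 29.1 CPM (21.7–38.1) in YS-Ex, so its order of the groups was opposite in the libraries. No difference between the libraries reached 1.5-fold for these 4 genes in Cpa3-high cells.

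**Figure D3:**
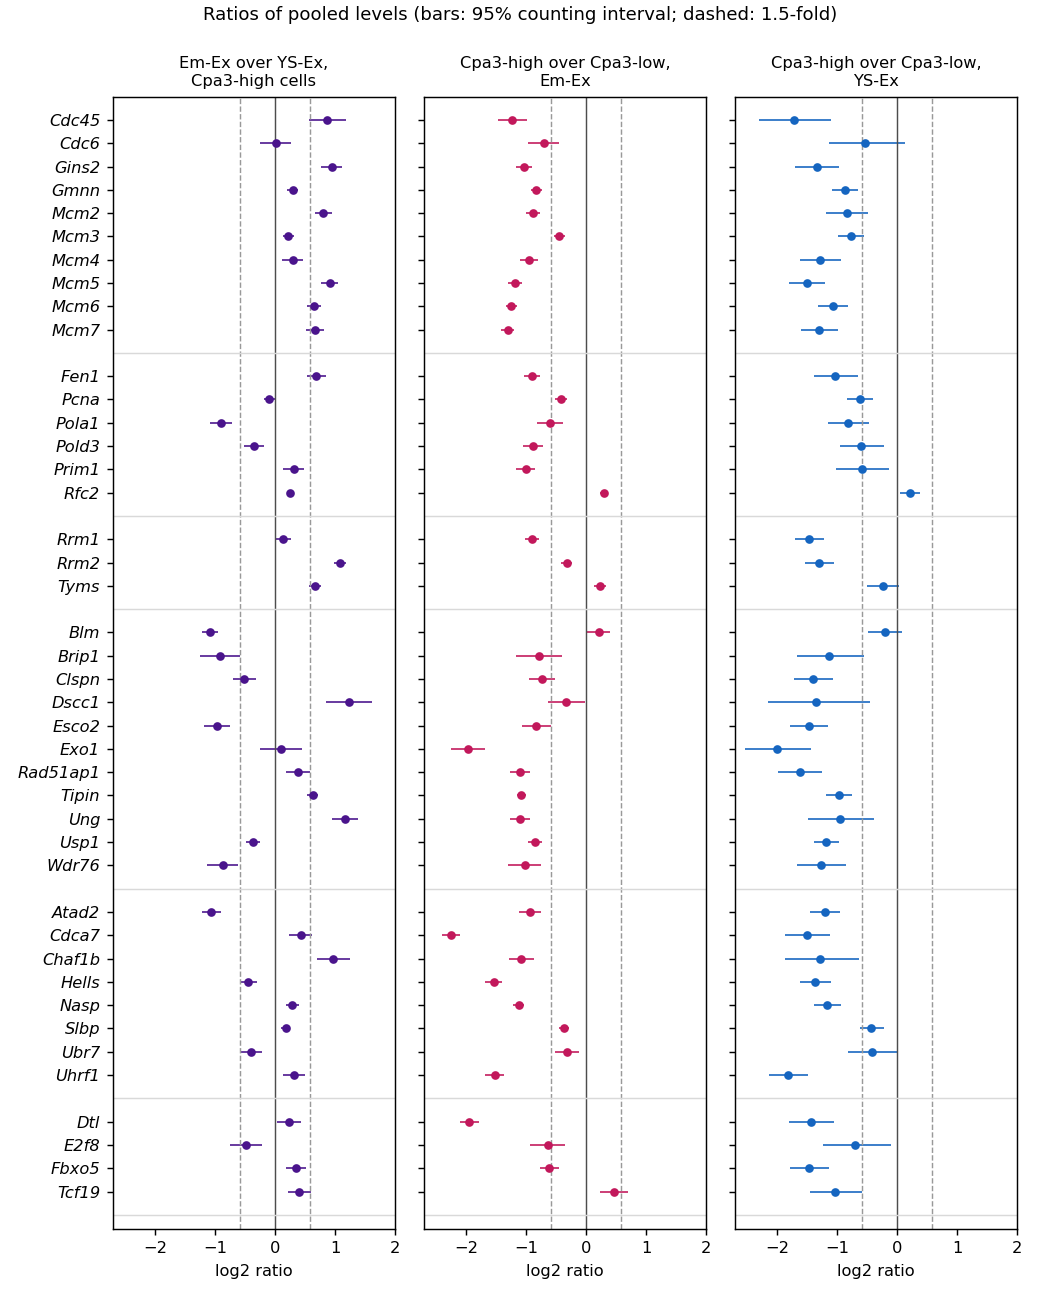
Log2 ratios of pooled levels for each of the 42 genes, in the order of the plot of levels, with 95% counting intervals and dashed lines at 1.5-fold, for Em-Ex over YS-Ex in Cpa3-high cells (left), and Cpa3-high over Cpa3-low cells in Em-Ex (middle) and YS-Ex (right). The left panel has 13 genes past the line on the right and 6 on the left, and the other panels have 32 and 36 genes past the left line.

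The members that were lower in Em-Ex were longer genes. In the GENCODE M21 annotation of GRCm38 the 6 lower members had a median span of 60.7 kb (14.96–327) and a median longest transcript of 5.06 kb, and the 13 higher members had 15.3 kb (5.04–31.5) and 3.10 kb. Over the 42 members the Spearman correlation of the log2 ratio with span was -0.53 and with transcript length -0.55. The same held over all 6792 genes tested that have an annotated span, with -0.45 and -0.53, and the median log2 ratio was, from the shortest to the longest 25% of these genes, 0.20, 0.15, -0.13 and -0.65. All points share the same pair of libraries, so these values describe them only. The split of the members by library therefore lies along a trend of the whole table, and the part of length in each member's ratio was not tested. *Esco2*, lower in Em-Ex, had a span of 14.96 kb, under the median of 17.5 kb of all members. Its longest transcript, at 3.996 kb, was above their median of 3.46 kb. The trend by *Cpa3* was not examined for length.

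**Figure D4:**
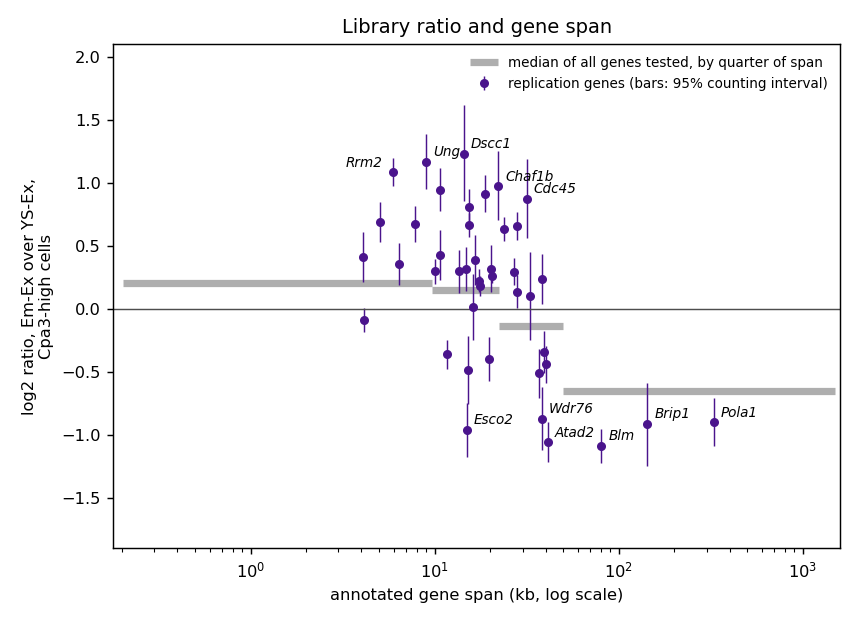
Log2 ratio of Em-Ex over YS-Ex in Cpa3-high cells (vertical, bars are 95% counting intervals) by annotated gene span (kb, log axis) for the 42 genes, with grey bars at the median of all genes tested in each 25% of genes by span. The grey bars step down from 0.20 to -0.65, and Pola1, Brip1 and Blm lie low at the long end.

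Within one library and one class of cells, the members moved together. Cpa3-high cells were thinned to 3000 UMIs and ranked for each gene by the summed UMIs of the other 41, so that no gene chose its own groups, and the gene's level in the top 25% of cells was divided by that in the bottom 25%. The ratio was at least 1.5 for 41 of the 42 genes (Em-Ex) and 40 (YS-Ex), with medians of 9.77 and 7.84, while 20.5% of 6605 and 13.7% of 7114 other genes were higher by as much in cells ranked by the whole module. No member was lower by 1.5-fold, where 7.18% (Em-Ex) and 3.87% (YS-Ex) of the other genes were. The steepest in both libraries was *Exo1*, with almost no signal in the bottom group. It went from 0.17 to 14.4 CPM in Em-Ex, a ratio of 84.2 (14.8–3350), and from 0.18 to 15.4 CPM in YS-Ex, a ratio of 87.4 (15.4–3482). *Rad51ap1* had ratios of 36.4 (18.3–84.9) and 82.8 (28.1–403), *Fbxo5* 56.2 and 25.8, and *Rrm2* 44.7 (31.2–66.5) and 49.4 (29.3–90.8). The flattest were *Ubr7*, *Rfc2*, *Blm* and *Pold3*, at 1.33 to 2.86, followed by *Slbp* at 2.995 and 2.66 and then by *Usp1*, *Gmnn* and *Pcna*.

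**Figure D5:**
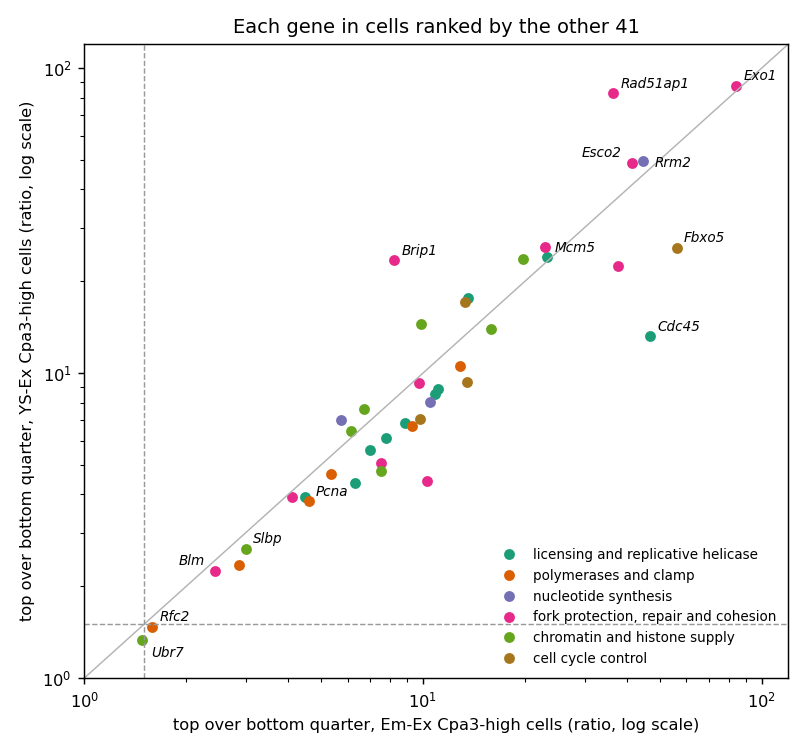
Ratio of each gene's level in the top over the bottom 25% of Cpa3-high cells ranked by the other 41 genes, in Em-Ex (horizontal) and YS-Ex (vertical), on log axes, coloured by role, with dashed lines at 1.5 and a grey line of equality. The genes run along the line of equality from Ubr7 and Rfc2 near 1.5 to Exo1 at 84.2 and 87.4.

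The top 25% of cells differed in more than replication genes. In Em-Ex, *Cpa3* went from 14842 CPM in the bottom to 10573 CPM in the top group of cells ranked by the module, *Tpsb2* (a tryptase) from 9740 to 4192 CPM and *Cma1* (a chymase) from 22482 to 11831 CPM. In YS-Ex the same genes went from 18723 to 14928, from 9673 to 6051 and from 17272 to 12350 CPM. Mast cell protease messages were thus lower where replication messages were high, in both libraries, with the cells still past the limit on *Cpa3*. Median depth went from 9778 to 15732 UMIs in Em-Ex and from 10997 to 15401 UMIs in YS-Ex between these groups, before thinning. Among the 10 genes outside the lists whose ratio was largest in the lower of both libraries, with at least 20 CPM in the top group, were *Pbk* (29.8 in Em-Ex and 37.2 in YS-Ex), *Hist1h2ap* (38.2 and 22.1) and *2810417H13Rik* (19.7 and 24.8). Also among them were *Fignl1*, *Sgol1*, *Rad54l*, *Hist1h1b*, *Spc25* and *Cdca2*, each at 11.8 or more in both.

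Most replication genes outside the 42 were also higher in the top group of this ranking. Of 58 listed, 42 of the 44 with enough counts (Em-Ex) and 43 of 46 (YS-Ex) were higher by 1.5-fold in the top group, where 20.5% and 13.7% of all genes outside the module were. Over those with enough counts the median ratios were 4.49 and 4.27. The members ranked by the other 41 had 9.77 and 7.84, over all 42 with no limit on counts, so the sets are unlike. Between Cpa3-high and Cpa3-low cells 34 of 45 tested (Em-Ex) and 37 of 48 (YS-Ex) were lower by 1.5-fold, against 29.4% and 17.7% of all genes tested. Of the 58, *Dna2* (2.26 and 12.7 CPM in Em-Ex), *Ticrr* and *Mcm8* had the lowest ratios in Em-Ex and *Dna2*, *Ticrr* and *Donson* in YS-Ex, with *Mcm8* under 10 CPM in both groups. At the other end stood *Pold4*, the smallest subunit of its polymerase, at 134 CPM in Cpa3-high and 82.55 CPM in Cpa3-low Em-Ex cells and 123 and 95.1 CPM in YS-Ex, followed by *Orc4* with *Asf1b* or *Orc5*. Between the libraries, within Cpa3-high cells, *Pold2* (2.71-fold), *Tk1* (2.04-fold) and *Asf1b* (1.98-fold) were highest of the 58 in Em-Ex. *Topbp1*, *Mcm9* and *Dnmt1* were lowest there, at 0.50 to 0.55 of YS-Ex. In these Cpa3-high cells 10 of 38 tested were higher by 1.5-fold and 5 lower, where 8.53% and 24.2% of all genes tested were. Over all cells 22 of 42 were higher and 2 lower, with 16.5% and 22.3% of all genes tested. In Cpa3-low cells 13 of 48 were higher and 5 lower, with 19.7% and 27.6% of all genes tested.

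The 20 mitosis genes, which mark the other end of the division cycle, were set beside the module. Of these, 19 were lower by 1.5-fold in Cpa3-high cells in each library, against 29.4% (Em-Ex) and 17.7% (YS-Ex) of all genes tested, with *Ccnb2* (cyclin B2) at 0.86 and 0.69 of its Cpa3-low level. Between the libraries 10 of the 20 were higher and 5 lower in Em-Ex Cpa3-high cells, that is 50% and 25%, where 8.53% and 24.2% of all genes tested were, from *Cdc20* (2.75-fold), *Aurka* and *Ube2c* at one end to *Top2a*, *Mki67* and *Aspm* at 0.51 to 0.55 at the other. Cells were then divided by a cut of 20 per 10000 on each list. In Em-Ex Cpa3-high cells 14.3% were above it for the module only, 5.59% for both, 7.14% for mitosis only and 73.0% for neither. In YS-Ex the shares were 7.35%, 5.40%, 3.13% and 84.1%. Among Cpa3-low cells the module-only, both and mitosis-only shares were 35.6%, 16.1% and 15.5% in Em-Ex and 14.9%, 19.9% and 7.80% in YS-Ex.

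Members differed in how their levels ran across these classes of cells. Each member was left out of the sum that sorted cells for it, and the values are a description. In Em-Ex Cpa3-high cells *Ung* stood at 79.6 CPM in module-only cells, 4.01 CPM in cells high for both and 1.595 CPM in mitosis-only cells, and *Cdc6* at 34.6, 6.68 and 0.80 CPM. In YS-Ex *Cdc6* stood at 40.8, 18.2 and 8.13 CPM. These are messages of the G1/S side, and the MCM genes followed with *Mcm5* at 133, 94.9 and 23.1 CPM in Em-Ex and 129, 59.3 and 14.0 CPM in YS-Ex. *Esco2* and *Rad51ap1* instead peaked in cells high for both, *Esco2* at 23.7, 54.9 and 11.5 CPM in Em-Ex and at 38.0, 166 and 41.2 CPM in YS-Ex. *Rrm1* did the same, at 82.0, 136 and 58.7 CPM in Em-Ex, and its partner *Rrm2* stood at 273, 294 and 70.9 CPM in Em-Ex and at 151, 251 and 43.0 CPM in YS-Ex. *Rfc2* and *Blm* in mitosis-only cells stood at 0.97 and 0.89 of their level in module-only cells in Em-Ex, and at 0.88 and 0.74 in YS-Ex.

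Several members departed from the module by a fixed size, a log2 ratio over 1 away from the members' median among those with at least 10 CPM in 1 of the groups. *Rfc2*, a subunit of the clamp loader, departed by *Cpa3* in both libraries, at 232 CPM (226–238) in Cpa3-high and 188 CPM (182–195) in Cpa3-low Em-Ex cells and 194 CPM (189–200) and 168 CPM (149–188) in YS-Ex. It gave the most UMIs of any member in Cpa3-high cells, 14.4% of the sum in Em-Ex and 14.2% in YS-Ex. Its annotated gene (chr5:134581366-134601805, + strand, GRCm38) overlaps the end of *Lat2* (chr5:134600022-134615025, - strand), an adaptor of mast cell signalling, which stood at 344 and 71.9 CPM in Em-Ex and 259 and 102 CPM in YS-Ex. The sources used here do not state whether the counting used strand, and the part of *Lat2* in the *Rfc2* values was not tested. Other members that overlap a gene on the opposite strand which is also in the table are *Mcm7*, *Fen1*, *Gins2*, *Ubr7* and *E2f8*, and *Pcna*, *Tyms* and *Nasp* have annotated pseudogenes.

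*Tyms*, *Blm* and *Tcf19* departed by *Cpa3* in Em-Ex, at Cpa3-high over Cpa3-low ratios of 1.175 (1.096–1.26), 1.16 (1.01–1.32) and 1.38 (1.17–1.62), where the members' median log2 ratio was -0.90. In YS-Ex these were 0.85 (0.70–1.03), 0.86 (0.71–1.06) and 0.49 (0.36–0.67), where the median log2 ratio was -1.17. There *Tyms* and *Blm*, at log2 ratios of -0.24 and -0.21, lay just short of the fixed size and on the same side of the median as in Em-Ex, and *Tcf19* lay near the median. *Cdca7*, *Dtl* and *Exo1* departed to the other side in Em-Ex, at 0.21, 0.26 and 0.26. Between the libraries, examined within Cpa3-high cells only, *Wdr76*, *Atad2*, *Blm*, *Pola1* and *Esco2* departed, all lower in Em-Ex. *Brip1*, which is under 10 CPM in both groups, lay as far off at a log2 ratio of -0.91. In the ranking by the other 41 genes, *Ubr7* was the one member short of 1.5-fold in both libraries, with ratios of 1.49 (1.15–1.93) and 1.33 (1.07–1.67), and *Rfc2* stood next at 1.59 (1.48–1.70) and 1.47 (1.36–1.595).

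Members were also compared among cells above the cut of 20. For each member the cells were chosen by the other 41, and the values are a description. In Em-Ex 6 of 42 members were higher and 3 lower by 1.5-fold in Cpa3-high than in Cpa3-low cells of that kind, with a median ratio of 0.96, where 15.4% and 22.1% of all 7245 genes tested were higher and lower. The members' shares were thus near that of all genes for higher and below it for lower. *Tcf19* stood at 56.4 against 19.1 CPM (2.96-fold, 2.47–3.55), *Tyms* at 209 against 100.2 CPM (2.08-fold, 1.91–2.26) and *Rrm2* at 279 against 164 CPM (1.71-fold, 1.59–1.83). *Cdca7* stood at 45.1 against 119 CPM, 2.65-fold lower, *Dtl* 1.96-fold lower and *Exo1* 1.81-fold lower. Between the libraries in the Cpa3-high cells above the cut 2 members were higher and 10 lower in Em-Ex, with 8.87% and 25.5% of all 7162 genes tested, so the members' shares were near those of all genes. The median ratio was 0.87, with *Brip1* (3.28-fold), *Atad2* (2.98-fold), *Esco2* (2.90-fold) and *Blm* (2.61-fold) the furthest down.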

How the data were processed

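Single-cell RNA sequencing counts were used as the authors deposited them, a whole-number count of UMIs for each gene and barcode. Per the labels, sequencing runs were converted with bcl2fastq 2.19.1.403, and the authors aligned and counted reads with Cell Ranger 2.0.1 on mm10; whether strand was used in counting is not given in the sources used here. The authors' stated limits were applied to the 3504 Em-Ex and 3037 YS-Ex barcodes (1000 to 5000 genes, at most 5% UMIs of 13 mitochondrial genes). The deposited barcodes equal the cell numbers the study analysed, so the cells used here are a smaller set, without 433 Em-Ex and 950 YS-Ex barcodes. Doublets were not removed beyond this.

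UMIs were summed over the cells of a group and divided by the group's UMIs (CPM), with exact Poisson intervals for levels, conditional binomial intervals for ratios and Clopper-Pearson intervals for shares. Log2 ratios had 0.5 added to both counts where 1 of them was 0. With 1 library per condition no test was run, and genes were called by a ratio of 1.5 in either direction; background shares are over genes with at least 10 CPM in 1 of the compared groups. The 42 members and the lists of other replication, mitosis and marker genes were chosen with earlier results of these data known. Named were all members, the 3 highest and 3 lowest of each further list per comparison, genes of the 10 outside the lists that followed the module most in both libraries, and the genes of the gate and sort; some items are not reported here. The cut of 20 module UMIs per 10000, the bands of *Cpa3*, the lengths and the classes by mitosis genes were chosen after values were seen. Alternatives covered the cell filter, shared barcodes, the *Cpa3* limit, scaling, thinning, the fold and the ranking. Python 3.11.15, numpy 2.4.6, scipy 1.17.1, pandas 2.3.3 and matplotlib 3.10.9 were used, and the calculations were tested on simulated data.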

Additional observations from a re-analysis of the deposited data

Results flagged for a closer look

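*Tyms*, *Blm* and *Tcf19* had a Cpa3-high over Cpa3-low ratio that pointed in opposite directions in the 2 libraries. On the log2 scale *Tyms* had 0.23 for Em-Ex against -0.24 for YS-Ex, 0.48 apart. *Blm* stood at 0.21 and -0.21, 0.42 apart. *Tcf19*, whose intervals exclude equality in both libraries, stood at 0.46 and -1.04, 1.498 apart. With 1 library per condition these differences were not tested.

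Barcodes outside the limits on genes and mitochondrial UMIs entered no comparison of the report, only the alternatives on the cell filter. They held replication messages too, at 1979 CPM in the 433 barcodes removed from Em-Ex and 1317 CPM in the 950 removed from YS-Ex.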

How the results depend on the processing

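No paired analysis was possible because each condition had 1 library and no result came from a test. As log2 ratios the summed levels were 0.46 (Em-Ex over YS-Ex, all cells), 0.23 (the same in Cpa3-high cells), -0.73 (Cpa3-high over Cpa3-low, Em-Ex) and -0.89 (the same in YS-Ex). With every deposited barcode the first was 0.49. With up to 10% mitochondrial UMIs the first were 0.52 and 0.28, and without the 5% of cells with the most UMIs the first 3 were 0.56, 0.34 and -0.76. A *Cpa3* limit of 20 gave -0.82 (Em-Ex) and -1.13 (YS-Ex) by *Cpa3*, and a limit of 80 gave 0.15 between the libraries and -0.70 by *Cpa3* in YS-Ex. As a mean over cells the ratios by *Cpa3* were -0.83 and -0.74. Thinned to 3000 UMIs, all 4 were 0.48, 0.27, -0.80 and -0.80. Without *Rfc2*, *Slbp* and *Tipin*, the members with the most UMIs, they were 0.49, 0.21, -0.87 and -1.06. Alternatives chosen after seeing the data were Cpa3-low cells under 5 *Cpa3* UMIs per 10000 only, at -0.90 (Em-Ex) and -1.26 (YS-Ex, 40 cells), and cells at or over 20 module UMIs per 10000. Among the latter the ratio reversed to -0.15 between the libraries and to 0.025 by *Cpa3* in Em-Ex, a cut that uses the module itself.

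At a fold of 2 the counts of members were 5 between the libraries (3 higher, 2 lower in Em-Ex), 17 by *Cpa3* in Em-Ex and 26 by *Cpa3* in YS-Ex. Otherwise they ran from 16 to 19 between the libraries, from 31 to 33 by *Cpa3* in Em-Ex and from 32 to 39 in YS-Ex. By *Cpa3*, 1 member was higher and 32 lower in Em-Ex at a limit of 20, and 1 was higher and 31 lower in YS-Ex after thinning. The split between the libraries, 13 higher and 6 lower, became 15 and 4 after thinning or without the cells with the most UMIs, and 10 and 8 at a *Cpa3* limit of 80. Of the 87 member ratios past 1.5-fold, 1 reversed in 9 settings. This was *Dscc1* by *Cpa3* in YS-Ex, with a log2 ratio of 1.499 after thinning, a gene with 15 UMIs in Cpa3-low YS-Ex cells at full depth. Depth limits low members, and the 141 Cpa3-low YS-Ex cells limit every ratio that uses them.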
